A study of Homo sapiens with 15 samples.

Results

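The zinc finger genes of human chromosome 19 described here are the genes of the deposited promoter table whose region lies on chromosome 19 and whose Entrez number maps to a current symbol made of ZNF and a number. They numbered 179 of the 14432 genes in the table. A further 170 genes with such symbols lay on other chromosomes, and 891 other genes lay on chromosome 19. The choice used names and positions alone and no measured value. The study used HEK293T T-Rex, a line of human embryonic kidney origin made to carry a transgene under tetracycline control, for its 15 samples. PHC1 PAR-CLIP (2 libraries) and PHC1 ChIP (2 libraries) came from cells with a PHC1 transgene, and PHC1-dFCS ChIP (2 libraries) from cells with the PHC1-dFCS transgene, all grown with hygromycin and pulled down on streptavidin beads. RNAPII PAR-CLIP (1 library with 4SU and 1 with 6SG), total nuclear RNA (2 libraries, from crosslinked cells) and ChIP for RNAPII, EZH2, H3K27me3, H3K4me3 and input (1 library each) came from cells whose transgene is labelled none. Every comparison of PHC1 PAR-CLIP with nuclear RNA or RNAPII PAR-CLIP was therefore also one between cells with and without the transgene, and these cannot be told apart. PAR-CLIP cells were fed 100 uM of the nucleoside, and the cells of all other assays were untreated. Replicates are separate libraries, and nothing says that they came from separate cultures, so p-values measure the spread between libraries, which may be technical.

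C2H2 zinc finger genes form the largest family of human DNA binding proteins, and many of those on chromosome 19 stand in tandem runs that arose by duplication. Many carry a KRAB domain, which recruits the corepressor TRIM28 and the H3K9 methyltransferase SETDB1 to the DNA sequences the fingers read, often in transposable elements. PHC1 belongs to PRC1, a Polycomb complex that represses genes together with PRC2, whose enzyme EZH2 places H3K27me3, while H3K4me3 and RNAPII mark the start sites of active genes. In PAR-CLIP, light crosslinks RNA to the protein that holds it, and sequenced clusters of reads mark where.

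The chromosome 19 ZNF genes lay in 16 runs, taking a gap of over 1 Mb as the border between runs, and 9 of these runs held 5 or more genes and 170 of the 179 genes. The longest were ZNF628 to ZNF324 with 38 genes (hg19, chromosome 19, bases 55987699 to 58984945), ZNF101 to ZNF254 with 34 (bases 19779663 to 24312654), ZNF175 to ZNF331 with 31 (bases 52074531 to 54083523), and ZNF627 to ZNF791 with 18 (bases 11708235 to 12740676). The run ZNF566 to ZNF573 (bases 36936021 to 38307940) held 14 genes. Gene regions had a median length of 21.4 kb in the chromosome 19 ZNF genes, 21.95 kb in ZNF genes on other chromosomes and 23.8 kb over all genes. Many of these genes are close copies of a neighbour, and the counting of reads that fit several copies is not stated, so values of single genes within a run are uncertain in that respect.

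Many promoters of the chromosome 19 ZNF genes held short words that the choice of genes did not use, in part like ZNF promoters elsewhere. RefSeq promoters of build GRCh38.p14, 250 bases before to 50 bases after the start, were found for 158 of the 179 genes. The ETS core CCGGAAG, the usual recognition word of ETS family activators, stood on either strand in 68 of these 158 promoters (43.0%), in 38.3% of ZNF promoters on other chromosomes, in 12.8% of promoters of other genes on chromosome 19 and in 14.0% of all 10969 promoters matched. It began at a median position of -18.5 from the start in chromosome 19 ZNF genes, with 91.3% of the 80 matches within 100 bases before the start or after it, against -46.0 and 72.6% over all genes. A CCAAT box (CCAAT, either strand), the word read by NF-Y, stood in 56.3% of chromosome 19 ZNF promoters, 46.1% of ZNF promoters elsewhere, 37.1% of other promoters on chromosome 19 and 36.0% of all promoters. TATAAA stood in 1.90%, 4.96%, 7.88% and 8.89% of these sets, and GGGCGG in 70.9%, 57.4%, 66.5% and 60.01%.

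The sequences show how far the sharing goes within a run. TCCAATCAGG, a longer word around CCAAT that was searched after the sequences had been read, stood in 38 of the 158 chromosome 19 ZNF promoters (24.1%), 10 of 141 ZNF promoters on other chromosomes (7.09%), 1 of 711 other promoters on chromosome 19 and 66 of all 10969 (0.602%). All 38 lay in 3 runs, in 24 of 26 matched promoters from ZNF101 to ZNF254, 11 of 18 from ZNF627 to ZNF791 and 3 of 5 from ZNF554 to ZNF77. The ETS core followed other borders, in 18 of 26, 0 of 18 and 0 of 5 promoters of those runs, and in 20 of 36 from ZNF628 to ZNF324 and 16 of 26 from ZNF175 to ZNF331. The first 3 sequences below show the shared arrangement in ZNF91, ZNF43 and ZNF208 of one run, and ZNF441 shows the CCAAT word without the ETS core in another. ZNF302 had the most nuclear RNA, ZNF850 the highest H3K4me3, and ZNF541 was among the 4 lowest in H3K4me3. Capitals mark TCCAATCAGG and the ETS core, read CTTCCGG on the other strand.
ZNF91: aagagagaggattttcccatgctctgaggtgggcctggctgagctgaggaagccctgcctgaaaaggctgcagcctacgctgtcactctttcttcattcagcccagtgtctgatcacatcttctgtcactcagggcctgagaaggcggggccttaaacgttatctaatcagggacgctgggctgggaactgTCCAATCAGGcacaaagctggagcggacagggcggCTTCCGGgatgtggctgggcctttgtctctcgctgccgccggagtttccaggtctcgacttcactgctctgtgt
ZNF43: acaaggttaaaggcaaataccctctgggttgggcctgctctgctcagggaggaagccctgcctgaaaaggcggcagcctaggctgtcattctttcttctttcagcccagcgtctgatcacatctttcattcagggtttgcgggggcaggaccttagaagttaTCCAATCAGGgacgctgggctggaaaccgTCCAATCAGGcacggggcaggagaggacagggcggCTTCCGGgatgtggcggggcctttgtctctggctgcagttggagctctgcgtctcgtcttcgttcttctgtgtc
ZNF208: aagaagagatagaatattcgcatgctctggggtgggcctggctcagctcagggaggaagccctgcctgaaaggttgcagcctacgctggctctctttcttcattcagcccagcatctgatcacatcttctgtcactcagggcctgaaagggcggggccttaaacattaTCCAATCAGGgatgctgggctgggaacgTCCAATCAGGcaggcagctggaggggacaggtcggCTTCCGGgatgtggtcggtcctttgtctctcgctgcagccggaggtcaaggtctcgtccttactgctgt
ZNF441: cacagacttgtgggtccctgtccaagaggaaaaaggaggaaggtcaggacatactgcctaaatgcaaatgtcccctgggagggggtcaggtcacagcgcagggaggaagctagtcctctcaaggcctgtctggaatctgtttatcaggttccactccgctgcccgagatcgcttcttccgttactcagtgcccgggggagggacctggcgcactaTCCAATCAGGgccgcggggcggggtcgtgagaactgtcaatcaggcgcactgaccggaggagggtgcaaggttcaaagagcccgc
ZNF302: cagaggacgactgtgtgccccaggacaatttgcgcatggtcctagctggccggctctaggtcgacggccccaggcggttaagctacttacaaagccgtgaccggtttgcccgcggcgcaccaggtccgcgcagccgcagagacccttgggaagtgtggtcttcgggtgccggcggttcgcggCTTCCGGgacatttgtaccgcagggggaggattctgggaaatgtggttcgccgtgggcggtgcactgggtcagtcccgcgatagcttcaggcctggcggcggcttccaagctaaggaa
ZNF850: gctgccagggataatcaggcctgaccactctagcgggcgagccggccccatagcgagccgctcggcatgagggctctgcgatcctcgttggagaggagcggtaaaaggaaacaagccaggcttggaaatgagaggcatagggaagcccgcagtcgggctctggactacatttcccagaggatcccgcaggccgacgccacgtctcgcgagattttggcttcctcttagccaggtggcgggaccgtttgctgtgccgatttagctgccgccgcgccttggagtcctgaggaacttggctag
ZNF541: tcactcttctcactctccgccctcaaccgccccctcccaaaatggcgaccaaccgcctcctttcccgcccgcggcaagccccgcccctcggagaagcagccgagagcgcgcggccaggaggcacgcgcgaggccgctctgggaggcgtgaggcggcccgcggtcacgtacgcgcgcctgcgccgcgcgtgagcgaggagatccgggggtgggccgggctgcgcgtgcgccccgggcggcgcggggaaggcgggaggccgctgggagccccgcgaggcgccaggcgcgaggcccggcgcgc
They lie in GRCh38.p14 at chr19:23395422-23395721 on the minus strand (ZNF91), chr19:21836133-21836432 minus (ZNF43), chr19:22010894-22011193 minus (ZNF208), chr19:11766750-11767049 plus (ZNF441), chr19:34677428-34677727 plus (ZNF302), chr19:36772758-36773057 minus (ZNF850) and chr19:47573099-47573398 minus (ZNF541). In ZNF91 and ZNF43 the ETS core began at position -24 and in ZNF208 at -19, each with 1 or 2 CCAAT words upstream of it. CTTCCGGGATGTGG, which holds that core, was likewise searched after it had been read in these 3 promoters, so its presence in them is fixed by the choice. It stood in 7 chromosome 19 ZNF promoters, all from ZNF101 to ZNF254, and in 1 other of the 10969 promoters, that of ZNF141.

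Most chromosome 19 ZNF promoters carried H3K4me3 and RNAPII, more often than all genes, and Polycomb marks were about as rare as over all genes. A TSS was counted as marked at 2 or more times the scaled input reads. H3K4me3 passed this in 142 of 179 chromosome 19 ZNF promoters (79.3%, 95% Wilson interval 72.8 to 84.6, counting error only) and 143 of 170 ZNF promoters elsewhere (84.1%), against 57.4% of other genes on chromosome 19 and 62.5% of all genes. RNAPII passed it in 103 of 179 (57.5%) and 105 of 170 (61.8%), against 40.5% of other genes on chromosome 19 and 47.5% of all genes. EZH2 passed it in 3 of 179 and 1 of 170, against 2.06% of all genes, and H3K27me3 in 1 of 179 (interval 0.0987 to 3.096%) and 0 of 170, against 1.86%. The intervals of the chromosome 19 and other ZNF shares overlapped for all 4 targets. There was 1 library per target, so there is no replicate check or test. The median chromosome 19 ZNF TSS had 184 H3K4me3, 37 RNAPII, 18 EZH2, 19 H3K27me3 and 20 input reads, so EZH2 and H3K27me3 ratios of single genes rest on few reads, and the table lists only TSS with at least 10 reads in each of these libraries.

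The 4 highest H3K4me3 values by log2 over input were at ZNF850, ZNF793, ZNF234 and ZNF567, of which 3 belong to the run ZNF566 to ZNF573. ZNF850 had 755 H3K4me3 reads and 28 input reads, or 24.3 times the scaled input. ZNF793 stood at 19.8 times, ZNF567 at 16.2 times and ZNF234 at 15.7 times. RNAPII, by the same measure, was highest at ZNF566 (197 reads, 5.86 times input), ZNF527 (201 reads, 5.70 times), ZNF567 (5.25 times) and ZNF420 (181 reads, 4.40 times), the last encoding Apak, a regulator of p53. All 4 lie in the run ZNF566 to ZNF573, where H3K4me3 passed in 12 of 14 and RNAPII in 11 of 14 promoters. In times input alone the highest RNAPII value of a chromosome 19 ZNF gene was 7.21, at a gene other than these 4. The lowest H3K4me3 values stood at ZNF865 (13 reads, 0.510 times input), ZNF439 (14 reads, 0.602 times), ZNF135 (13 reads, 0.617 times) and ZNF541 (16 reads, 0.687 times), a gene known from meiosis in the testis.

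The promoters with Polycomb signal were few and weak. ZNF665 was the only chromosome 19 ZNF gene past the limit for H3K27me3, with 39 reads against 17 in the input (2.06 times), and its H3K4me3 was 1.01 times input. ZNF99 had 32 H3K27me3 reads and 18 input reads (1.60 times), ZNF320 stood at 1.73 times and ZNF836 at 1.61 times. ZNF320 and ZNF836 also carried H3K4me3, at 3.68 and 13.4 times input. EZH2 passed at ZNF69 (29 reads against 15 in the input, 2.18 times), ZNF441 (28 against 15, 2.11 times) and ZNF347 (22 against 12, 2.07 times), none of which passed for H3K27me3. ZNF69 and ZNF347 lacked H3K4me3, at 0.902 and 1.20 times input, while ZNF441 had 8.96 times.

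Genes without H3K4me3 at the promoter had a lower median of nuclear RNA than those with it, and Polycomb marks were rare among them, as in such genes overall. Among the 37 chromosome 19 ZNF genes under the H3K4me3 limit, H3K27me3 passed in 1 (2.70%, interval 0.479 to 13.8) and EZH2 in 2 (5.41%, interval 1.50 to 17.7), against 173 (3.197%) and 164 (3.03%) of 5412 such genes overall. Nuclear RNA per length had a median of 0.0237 per 1M per kb in these 37 genes (highest 2.83) and 1.32 in the 142 genes with H3K4me3 (0.0577 to 19.2). Across the 179 genes the Spearman correlation of nuclear RNA per kb was 0.73 with H3K4me3 over input, 0.61 with RNAPII over input and -0.42 with H3K27me3 over input, all ratios sharing 1 input library. The CG dinucleotide count of the promoter had a median of 16 in 29 genes without H3K4me3 and 22 in 129 with it. ZNF541, with 49 CG in 300 bases, had the most of the 158 and no H3K4me3. Carriers and non-carriers of the ETS core among chromosome 19 ZNF genes had similar medians, 8.58 and 8.85 times input for H3K4me3 and 1.08 and 0.986 per 1M per kb for RNA. In ZNF genes elsewhere these were 8.38 and 8.08, and 1.36 and 1.21. Carriers stood higher in other chromosome 19 genes (8.32 and 4.13, 2.75 and 0.322) and over all genes (10.1 and 5.71, 1.98 and 0.422). ZNF208 and ZNF91, a single chosen pair, share the ETS core and the CCAAT word. ZNF208 had 12 H3K4me3 reads (0.833 times input) and ZNF91 had 138 (6.92 times).

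**Figure D1:**
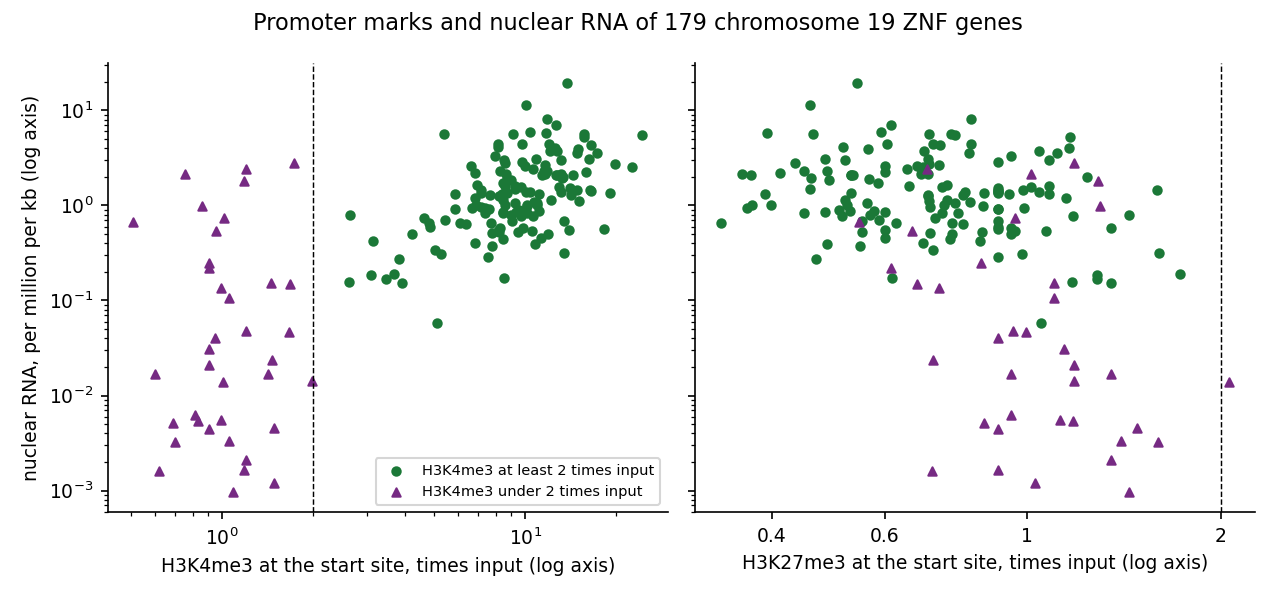
Nuclear RNA (TMM-scaled per 1M per kb, log axis, mean of 2 libraries) of the 179 chromosome 19 ZNF genes against H3K4me3 (left) and H3K27me3 (right) at the start site in times the input (log axis). Circles are the 142 genes with H3K4me3 of at least 2 times input and triangles the 37 under it; the dashed line is 2 times input, which 1 gene passed for H3K27me3.

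Of the 37 genes without H3K4me3 at the listed start, 8 had nuclear RNA of 0.5 per 1M per kb or more. No count at that level is given here for other genes. At 1 per 1M per kb or more it was 4 of 37, against 4 of 27 such ZNF genes elsewhere and 282 of 5412 such genes of the whole table. The 8 genes were ZNF875, ZNF404, ZNF574, ZNF90, ZNF573, ZNF132, ZNF865 and ZNF536, named after their values were seen. ZNF875 had the most, 2.83 per 1M per kb, with 67 H3K4me3 reads against 35 in the input. RefSeq lists 5 promoter entries for ZNF875, 4 for ZNF536, 2 for ZNF574 and 1 for each of the others. The deposited table gives 1 start per gene. Whether these genes are read from another start was not tested.

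Nuclear RNA of the chromosome 19 ZNF genes was spread over a wide range with a median above that of all genes. The median level was 1.01 per 1M per kb in chromosome 19 ZNF genes, 1.18 in ZNF genes on other chromosomes, 0.347 in other genes on chromosome 19 and 0.473 over all genes. A level of at least 1 was found in 90 of 179 and 97 of 170 ZNF genes, against 38.1% of all genes. No chromosome 19 ZNF gene lacked reads in both RNA libraries. In bulk samples, fewer cells that express a gene and less RNA per cell cannot be told apart.

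ZNF302 had the highest nuclear RNA level per length, 18.9 and 19.5 per 1M per kb in the 2 libraries. ZNF226 followed at 11.4 and 11.5, then ZNF460 at 8.22 and 7.94, ZNF181 at 7.18 and 7.01, ZNF607 at 5.72 and 6.03 and ZNF260 at 5.50 and 5.99. All 6 had H3K4me3 between 10.0 and 13.7 times input, and neighbours in this order did not overlap except ZNF607 and ZNF260. The lowest mean level was 0.000966 per 1M per kb, in ZNF835. ZNF135, ZNF347 and ZNF99, all without H3K4me3, had 0.00160, 0.00210 and 0.00322.

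Both PHC1-dFCS and PHC1 were near input level at these promoters, against an input from cells without a transgene. The authors' value, with the input they subtracted added back, reached 2 times input for PHC1-dFCS at 0 of 179 chromosome 19 ZNF promoters and 4 of 170 elsewhere, against 3.42% of all genes. For PHC1 it did so at 0 of 179 and 0 of 170, against 0.561%. A count of 0 of 179 allows a share of up to 2.10% at the upper Wilson bound. The median was 1.15 times input for PHC1-dFCS and 0.969 for PHC1 in chromosome 19 ZNF genes, against 1.20 and 1.01 over all genes. The log2 ratio of dFCS over PHC1 had a median of 0.21 in chromosome 19 ZNF genes, 0.26 in ZNF genes elsewhere and 0.25 over all genes. It passed 2-fold at 1 of 179 and 1 of 170, against 0.866% of all genes, and no gene of the table was 2-fold lower. That gene was ZNF180, at 7.80 for dFCS and 3.88 for PHC1 reads per 10M. Among genes named by rule, ZNF234 stood at 14.0 and 8.41 (log2 0.74), ZNF44 at 9.05 and 5.44 (0.73) and ZNF568 at 14.5 and 9.21 (0.66), while ZNF667 stood at 4.07 and 5.74 (-0.49), ZNF229 at 5.14 and 6.95 (-0.44) and ZNF69 at 4.43 and 5.85 (-0.40). Each of these is the authors' value joined from 2 replicates, so no SD or test is possible.

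PHC1 PAR-CLIP signal on the RNA of chromosome 19 ZNF genes was often high for their nuclear RNA. PHC1 clusters in these genes numbered 5617 and 5958 in the 2 libraries, 1.51% and 1.60% of clusters in genes, against 4878 (1.303%) with RNAPII 4SU and 275 (1.15%) with RNAPII 6SG. The RNA libraries held 341745 and 364849 reads in them, 0.724% and 0.735% of reads in genes. Coverage per length had medians of 1.53 and 1.51 per 1M per kb in the PHC1 libraries. It had 1.17 and 1.17 in ZNF genes elsewhere, 0.621 and 0.571 in other genes on chromosome 19 and 0.305 and 0.295 over all genes. RNAPII 4SU coverage was also above that of all genes, with medians of 1.49, 1.49, 0.344 and 0.382 in the same order of sets. The 2 PHC1 libraries had a Spearman correlation of 0.98 across the 179 genes, a description over genes of unequal length. ZNF850 had the highest PHC1 coverage per length, 59.2 and 47.7 per 1M per kb. No cluster in either library was found in 6 of the 179, against 11 of 170 ZNF genes elsewhere and 21.4% of all genes.

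The comparison of PHC1 PAR-CLIP with nuclear RNA asks where PHC1 held more or less RNA than its amount in the nucleus. It used limma on log2 of TMM-scaled values per 1M plus 1, over 9362 genes, with Benjamini-Hochberg adjusted p under 0.05. Of the 179 chromosome 19 ZNF genes, 150 passed the filter on low values, 93 were higher in PHC1 PAR-CLIP, 23 were lower and 34 were not called, against 35.5% higher and 47.1% lower over all genes. In ZNF genes on other chromosomes 64 of 146 were higher and 55 lower, and in other genes of chromosome 19 288 of 537 were higher and 159 lower. The median log2 fold was 0.88 in chromosome 19 ZNF genes, 0.13 in ZNF genes elsewhere, 0.70 in other chromosome 19 genes and -0.33 over all genes. With 1 library left out these medians were 0.78 to 1.02, 0.06 to 0.33, 0.06 to 0.93 and -0.57 to -0.03, with the 0.06 of both sets and the -0.57 without PHC1 replicate 1, and other chromosome 19 genes at 0.35 without PHC1 replicate 2. The filter then tested fewer genes, so the gene sets changed as well. Without PHC1 replicate 1 it left 434 other chromosome 19 genes and 8541 of all genes. Scaling by totals alone moved the median of all genes to -0.72 and the chromosome 19 ZNF counts to 78 higher and 40 lower. The count of lower genes was 38 without PHC1 replicate 1, 35 without PHC1 replicate 2, 14 without nuclear RNA replicate 1 and 13 without nuclear RNA replicate 2, while that of higher genes was 92, 98, 79 and 79.

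The fold moved with the length of the gene region. Its Spearman correlation with length was 0.61 over 150 chromosome 19 ZNF genes and 0.23 over 146 ZNF genes elsewhere. PHC1 coverage was summed over the whole region, while whether the RNA counts cover introns was not checked. The 93 higher genes had a median length of 28.7 kb and 1.18 per 1M per kb of nuclear RNA, and the 23 lower genes 10.5 kb and 2.54. Among regions of 30 kb or more, 43 of 47 chromosome 19 ZNF genes were higher (median log2 fold 1.99), against 33 of 55 ZNF genes elsewhere (0.79), 124 of 157 other genes of chromosome 19 (1.61) and 44.2% of all genes of that length (0.11). Among regions of 15 to 30 kb the medians were 0.81 in chromosome 19 ZNF genes, 0.08 in ZNF genes elsewhere, 0.99 in other genes of chromosome 19 and -0.34 over all genes. Under 15 kb they were -0.60, -0.69, -0.62 and -1.57 in the same sets. At each length the median of other chromosome 19 genes lay closer to that of the chromosome 19 ZNF genes than the median over all genes did. The part of length in the difference between these sets was not tested.

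**Figure D2:**
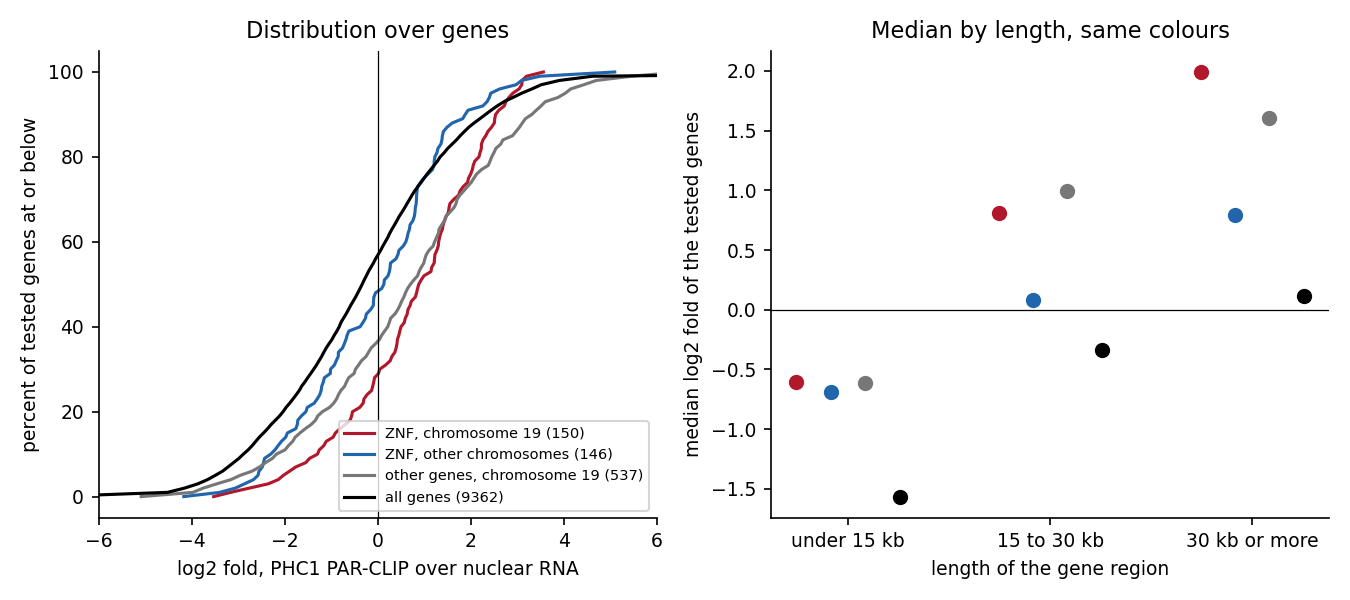
Left, percent of tested genes at or below each log2 fold of PHC1 PAR-CLIP over nuclear RNA in chromosome 19 ZNF genes (150), ZNF genes on other chromosomes (146), other genes of chromosome 19 (537) and all genes (9362). Right, the median log2 fold of the same sets by length of the gene region; chromosome 19 ZNF genes have a median of 1.99 at 30 kb or more and -0.60 under 15 kb.

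The 8 highest folds among called genes belonged to ZNF610, ZNF875, ZNF781, ZNF43, ZNF850, ZNF208, ZNF44 and ZNF461. Values per 1M at ZNF850 were 1649 and 1335 in the PHC1 libraries, against 174 and 170 in nuclear RNA. ZNF875 had 1405 and 1539 in PHC1 PAR-CLIP and 156 and 153 in nuclear RNA, and its log2 fold was 3.24 ± 0.07 (SE, limma adjusted p 0.000137). In both genes the PHC1 values lay far above the RNA values with no overlap, which the choice by call and fold on these same values favours. ZNF43 had 515 and 517 against 58.9 and 59.2 (log2 fold 3.11 ± 0.06). ZNF610 had 34.2 and 32.2 against 1.95 and 1.83 (3.56 ± 0.15), and ZNF781 had 44.5 and 50.0 against 4.42 and 4.38. Both rest on less material, with 15 and 18 PHC1 clusters at ZNF610 and 14 and 15 at ZNF781. ZNF208 had 13.7 and 9.43 against 0.524 and 0.373, from 5 and 2 clusters of which 35.0% and 18.9% of the coverage lay on the strand of the gene. ZNF610, ZNF781 and ZNF208 passed the filter of 5 per 1M through PHC1 PAR-CLIP alone, so the filter fixed their direction.

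The lowest folds came from mostly short genes, all but ZNF90 in the runs ZNF628 to ZNF324 and ZNF302 to ZNF792. Values per 1M at ZNF324 were 4.43 and 0.969 in PHC1 PAR-CLIP, against 37.3 and 36.1 in nuclear RNA (log2 fold -3.53 ± 0.54, adjusted p 0.00487 by limma). ZNF304 had 3.84 and 3.99 against 32.4 and 31.9. ZNF792 had 3.24 and 2.52 against 32.8 and 31.0. In all of these the PHC1 and RNA values did not overlap, which the choice by call and fold favours here too. ZNF471 was listed with no PHC1 cluster in either library, with 436 and 487 nuclear RNA reads and 14 RNAPII 4SU clusters. ZNF772 had 9.26 and 11.0 against 49.3 and 46.5, ZNF419 had 4.14 and 3.56 against 21.0 and 20.6, and ZNF181 had 15.8 and 12.6 against 63.4 and 61.3. ZNF90, with a long region of 47980 bases, was lower as well at 16.9 and 13.1 against 77.5 and 104, and its adjusted p was 0.0593 without PHC1 replicate 1 and 0.0774 without PHC1 replicate 2 (limma). ZNF302, the gene with the most nuclear RNA, had 81.2 and 79.5 against 176 and 179 in nuclear RNA (log2 fold -1.14 ± 0.06).

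**Figure D3:**
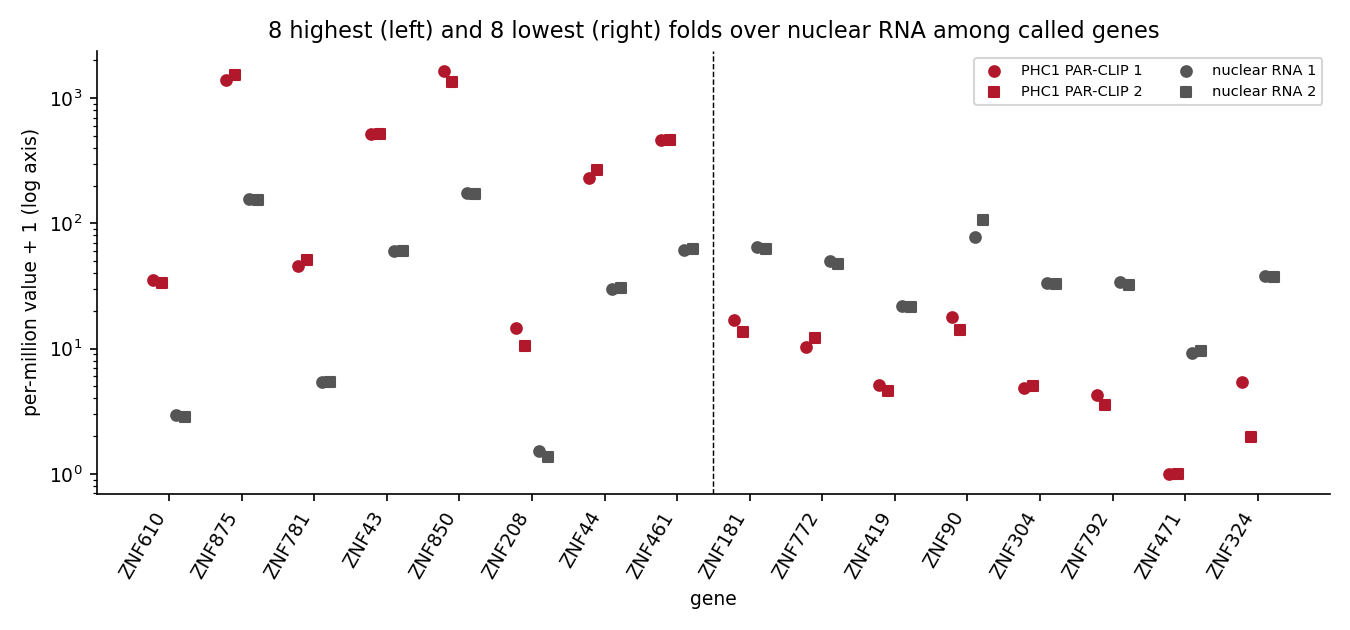
Values per 1M plus 1 (log axis) of each library for the 8 highest and the 8 lowest log2 folds among called chromosome 19 ZNF genes, PHC1 PAR-CLIP left of nuclear RNA within each gene. Circles are replicate 1 and squares replicate 2. In all 16 genes the PHC1 and RNA values do not overlap, which their choice by call and fold on these same values favours. ZNF610, ZNF781 and ZNF208 passed the filter through PHC1 PAR-CLIP alone, and ZNF324, ZNF304, ZNF792, ZNF471 and ZNF419 through nuclear RNA alone. The filter fixed the direction of these genes.

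Genes of one run often went the same way. From ZNF566 to ZNF573, 14 of 14 genes were higher in PHC1 PAR-CLIP than in nuclear RNA, with log2 folds of 1.23 to 3.24, a median of 2.58 and adjusted p-values of at most 0.000595 (limma). Coverage per length had medians of 14.0 and 14.8 per 1M per kb in the PHC1 libraries of this run, against 5.21 with RNAPII 4SU and 2.22 in nuclear RNA. Under the 15 other settings every tested gene of this run was again higher (13 or 14 genes), with a median between 1.51 and 2.82. The setting of clusters in 1 region only is among them and could not differ from the main fit. In the run ZNF101 to ZNF254 23 of 25 tested genes were higher and 1 lower (median 1.85), and 22 of its 34 promoters had H3K4me3. Over all genes 35.5% were higher and 47.1% lower, and 43 of 47 chromosome 19 ZNF genes of 30 kb or more were higher. Scaling by totals alone gave 20 higher and 2 lower of 26 in the run ZNF101 to ZNF254. By contrast, none of the 5 genes from ZNF302 to ZNF792 was higher and 4 were lower (median -1.89). All 5 had H3K4me3, and their nuclear RNA median was 3.91 per 1M per kb. Nuclear RNA is the denominator of this fold. The Spearman correlation of the fold with nuclear RNA per kb was -0.245 over 150 chromosome 19 ZNF genes. From ZNF628 to ZNF324 12 were higher and 11 lower of 36 tested. The median region was 32.6 kb long from ZNF566 to ZNF573 and 33.3 kb from ZNF101 to ZNF254, but 8.74 kb from ZNF302 to ZNF792 and 13.1 kb from ZNF628 to ZNF324.

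**Figure D4:**
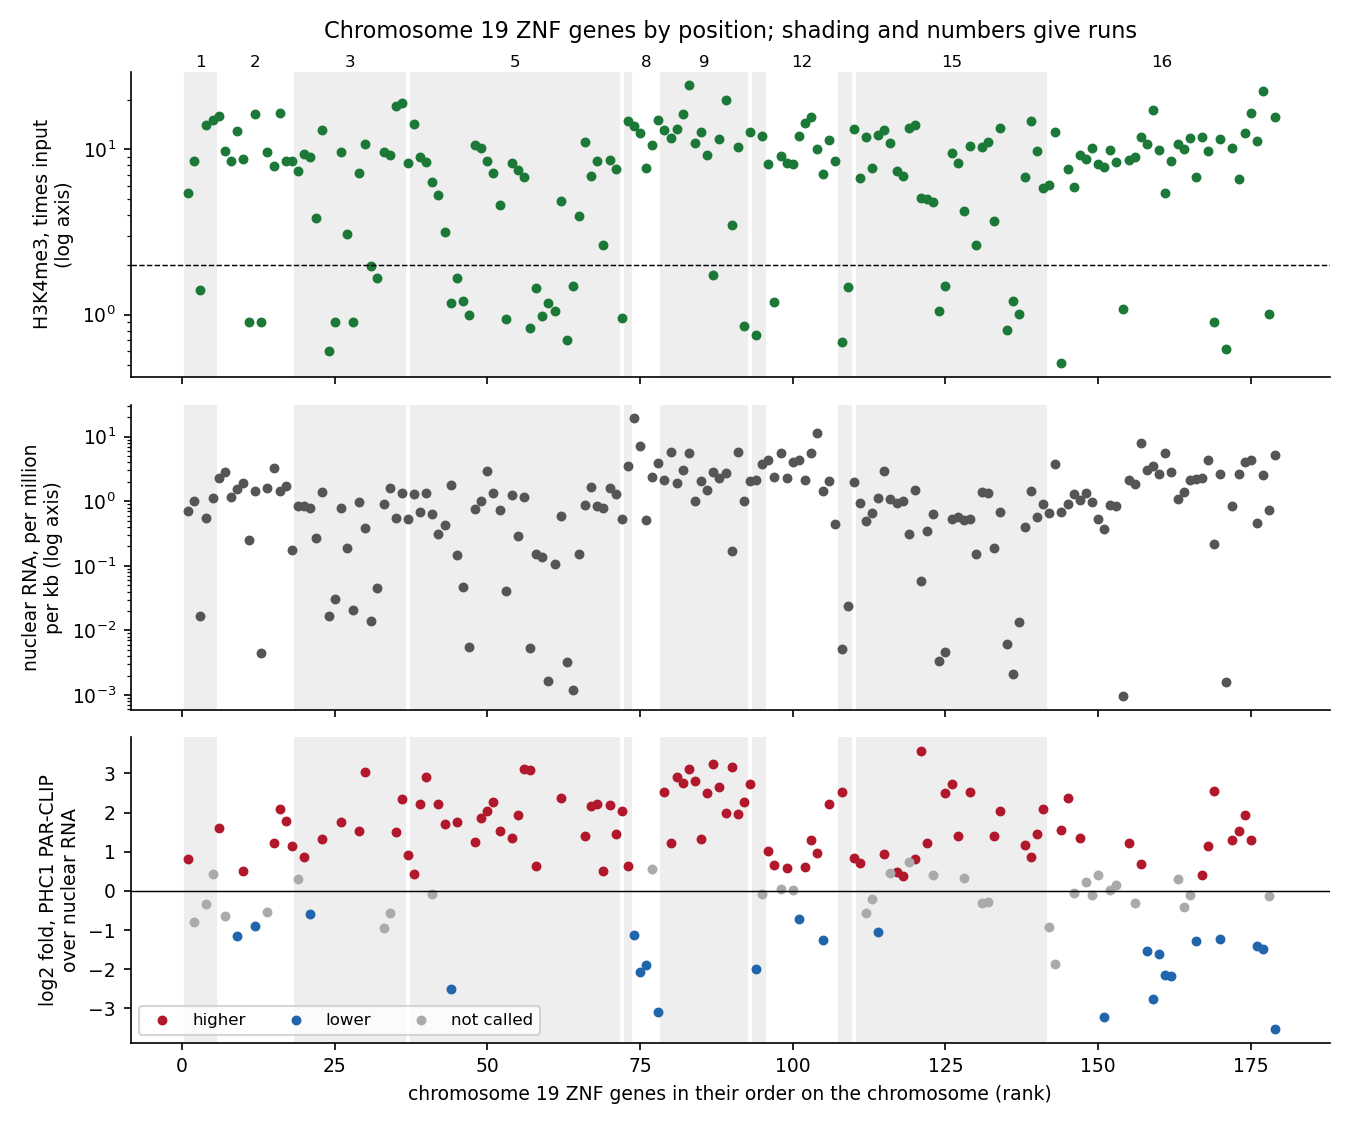
The 179 chromosome 19 ZNF genes in their order on the chromosome, with H3K4me3 in times the input (top, log axis, dashed line at 2), nuclear RNA per 1M per kb (middle, log axis) and the log2 fold of PHC1 PAR-CLIP over nuclear RNA for the 150 tested genes (bottom). Shading alternates between runs and runs of 5 or more genes are numbered; all 14 genes of run 9 (ZNF566 to ZNF573) are higher.

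Of a list of 16 ZNF genes with known roles, 12 were among the chromosome 19 ZNF genes of the table. Of these 10 were higher in PHC1 PAR-CLIP, 1 was lower and 1 was not called, beside 93 higher and 23 lower of all 150 chromosome 19 ZNF genes tested and 35.5% higher and 47.1% lower over all genes. ZNF91, which represses SVA and L1 elements, had 278 and 324 in PHC1 PAR-CLIP against 65.1 and 66.1 in nuclear RNA (log2 fold 2.18 ± 0.10). ZNF93, which represses L1 elements, had 46.1 and 69.1 against 11.0 and 11.5. In both genes every PHC1 value lay above the RNA values. ZNF274, known to bring SETDB1 to the ends of other ZNF genes, had 260 and 232 against 85.0 and 84.3 (1.52 ± 0.08). ZNF331, an imprinted gene, had 216 and 281 against 56.5 and 58.4, and ZNF417, which represses HERVK elements, had 114 and 114 against 50.9 and 50.4 (log2 fold 1.15). On cluster numbers ZNF417 was not called by edgeR (log2 fold 0.37, Benjamini-Hochberg adjusted p 0.0700), but was called by DESeq2. ZNF808, needed for pancreas development, had 144 and 140 against 20.3 and 20.5, the largest fold of the list (2.74 ± 0.08). ZNF473, a factor of histone mRNA processing, was higher by 0.85 ± 0.08 and ZNF420 by 1.32 ± 0.09.

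Among the rest of that list, ZNF536, a neural repressor with the longest region (186 kb), had no H3K4me3 (0.955 times input) but 431 and 443 in PHC1 PAR-CLIP against 107 and 104 in nuclear RNA. ZNF541 had 6.57 and 5.11 against 0.262 and 0.124, yet only 8.25% and 0% of that coverage lay on the strand of the gene. ZNF304 was the lower gene. ZNF541 passed the filter through PHC1 PAR-CLIP alone and ZNF304 through nuclear RNA alone, so the filter fixed the direction of both. ZNF350, a partner of BRCA1, had 18.6 and 9.38 against 14.9 and 16.2, values that overlap, with a log2 fold of -0.22 ± 0.36 (adjusted p 0.597, limma). It was called lower without PHC1 replicate 1 (-0.68) and higher without PHC1 replicate 2 (0.27), where the lone PHC1 library was assumed to vary like the RNA libraries.

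Signal on the opposite strand touched some of these calls. PHC1 coverage lay on the strand of the gene for 91.4% and 93.0% of the total in the 158 chromosome 19 ZNF genes with a known strand, against 90.2% and 92.4% over all genes. In 13 of 149 such genes with clusters in both libraries, most of the coverage in both lay on the opposite strand. No such count over all genes is given here. The lower quartile of a gene's share on its own strand was 86.6% and 86.0% in chromosome 19 ZNF genes, against 75.6% and 76.3% over all genes. The 13 genes include ZNF546 (21.9% and 19.7% on its own strand), ZNF404, ZNF433, ZNF784, ZNF541 and ZNF208, all called higher. Of the others ZNF574 was called lower, ZNF132 was not called, and ZNF878, ZNF844, ZNF563, ZNF296 and ZNF534 were under the filter. With clusters on the strand of the gene alone, a setting chosen after the data were seen, 88 chromosome 19 ZNF genes were higher and 21 lower of 136 (median 1.07), against 35.2% and 46.2% of all genes. The RNA kit keeps strand, but whether the counts used it is not stated.

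Single clusters carried much of the coverage in a few genes. ZNF714 lies on the plus strand, and its deepest cluster lay on the opposite strand, at chromosome 19, bases 21295932 to 21295959 (hg19). That cluster held 40.9% and 23.6% of the PHC1 coverage of the region. A minus-strand cluster from 21295933 to 21295958 held 55.1% of its RNAPII 4SU coverage. On the strand of ZNF714 itself lay 58.1% and 74.8% of the PHC1 coverage and 44.9% of the RNAPII 4SU coverage. In ZNF180 a cluster from base 45000095 to 45000364 held 53.9% in PHC1 replicate 1 and one from 45000096 to 45000166 held 47.9% in replicate 2. Without the deepest cluster of each gene, 92 chromosome 19 ZNF genes were higher and 27 lower of 147, against 3169 higher and 4250 lower of all 9012 genes tested.

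Set against both RNAPII PAR-CLIP libraries as 1 control group, no chromosome 19 ZNF gene was called by limma at adjusted p under 0.05, and neither was any gene of the table (0% higher and 0% lower). At unadjusted p under 0.05, 28 of 146 (19.2%) had more coverage in PHC1 PAR-CLIP and 3 had less, against 23.2% and 4.67% of other genes on chromosome 19 and 14.2% and 7.68% of all genes. On cluster numbers edgeR called 31 higher and 6 lower of 120, against 18.5% and 16.5%, and DESeq2 called 0, against 0.0458% in each direction. The median log2 fold was 1.23 in chromosome 19 ZNF genes, 0.45 in ZNF genes elsewhere, 0.93 in other genes of chromosome 19 and 0.59 over all genes. In simulated data of this layout the test recovered 0 of 100 genes changed 4-fold, and 72 of 100 in the layout against nuclear RNA. Those data changed 100 genes at each of 2 folds, with 8177 and 8882 genes tested in the 2 layouts. The measured comparison with nuclear RNA called 3319 genes higher and 4408 lower of 9362. Recovery with that many changed genes was not tested. The 2 RNAPII libraries differ in nucleoside and depth, with 4878 (4SU) and 275 (6SG) clusters in these genes.

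With the RNAPII 4SU library as the only control, 60 of 142 chromosome 19 ZNF genes were higher in PHC1 PAR-CLIP and 23 lower (limma, adjusted p under 0.05), against 33.7% and 28% of all genes. In ZNF genes elsewhere 34 of 130 were higher and 47 lower, and in other genes of chromosome 19 256 of 489 (52.4%) were higher and 57 lower, a larger share than the 42.3% of chromosome 19 ZNF genes. The median log2 fold was 0.40 in chromosome 19 ZNF genes, -0.29 in ZNF genes elsewhere, 0.76 in other genes of chromosome 19 and 0.04 over all genes. The lone 4SU library was assumed to vary like the PHC1 libraries. From ZNF566 to ZNF573 14 of 14 genes were higher again (log2 fold 0.71 to 3.07), in a comparison that uses the same PHC1 libraries as the one with nuclear RNA. In the run ZNF175 to ZNF331 5 were higher and 10 lower of 26, where 17 had been higher and 1 lower over nuclear RNA.

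By the rule for named genes at unadjusted p, ZNF781, ZNF573, ZNF461, ZNF208, ZNF180, ZNF607, ZNF433 and ZNF43 had the highest folds over RNAPII. ZNF461 had 447 and 443 in the PHC1 libraries, against 125 with RNAPII 4SU and 28.9 with RNAPII 6SG (log2 fold 2.86 ± 0.80, adjusted p 0.186, limma). ZNF180 had 203 and 297 against 51.2 and 25.4, and ZNF607 had 517 and 579 against 164 and 47.3. In each the PHC1 values lay above both RNAPII values, which the choice by p and fold on these same values favours. ZNF414, ZNF599 and ZNF543 were the 3 lower genes. ZNF543 had 12.5 and 8.73 in the PHC1 libraries, against 37.2 with RNAPII 4SU and 148 with RNAPII 6SG, and ZNF414 had no PHC1 cluster value above 0, against 6.58 and 10.6. ZNF414 passed the filter through the RNAPII libraries alone, so the filter fixed its direction.

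Within the gene, PHC1 clusters of chromosome 19 ZNF genes stood near the end less often than RNAPII 4SU clusters in most genes compared. C2H2 zinc finger genes usually encode the whole finger array in their last exon, and exons are not resolved here. The last 10% of the gene held a mean of 14.6% of PHC1 replicate 1 clusters on the strand of the gene in 98 chromosome 19 ZNF genes with 10 or more, against 12.9% in ZNF genes elsewhere and 11.7% in all genes. For RNAPII 4SU it held 24.7% in 118 chromosome 19 ZNF genes, against 20.1% in ZNF genes elsewhere and 14.8% in all genes. Among 86 chromosome 19 ZNF genes with 10 or more clusters in all 3 libraries, the means were 14.9% and 14.0% for PHC1 and 26.03% for RNAPII 4SU. Both PHC1 shares were below the RNAPII 4SU share in 60 of these 86 genes and above it in 17. Both were below it in 48 of 81 ZNF genes elsewhere and in 56.6% of 4120 genes overall. With 1 RNAPII 4SU library there is no test of this difference.

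**Figure D5:**
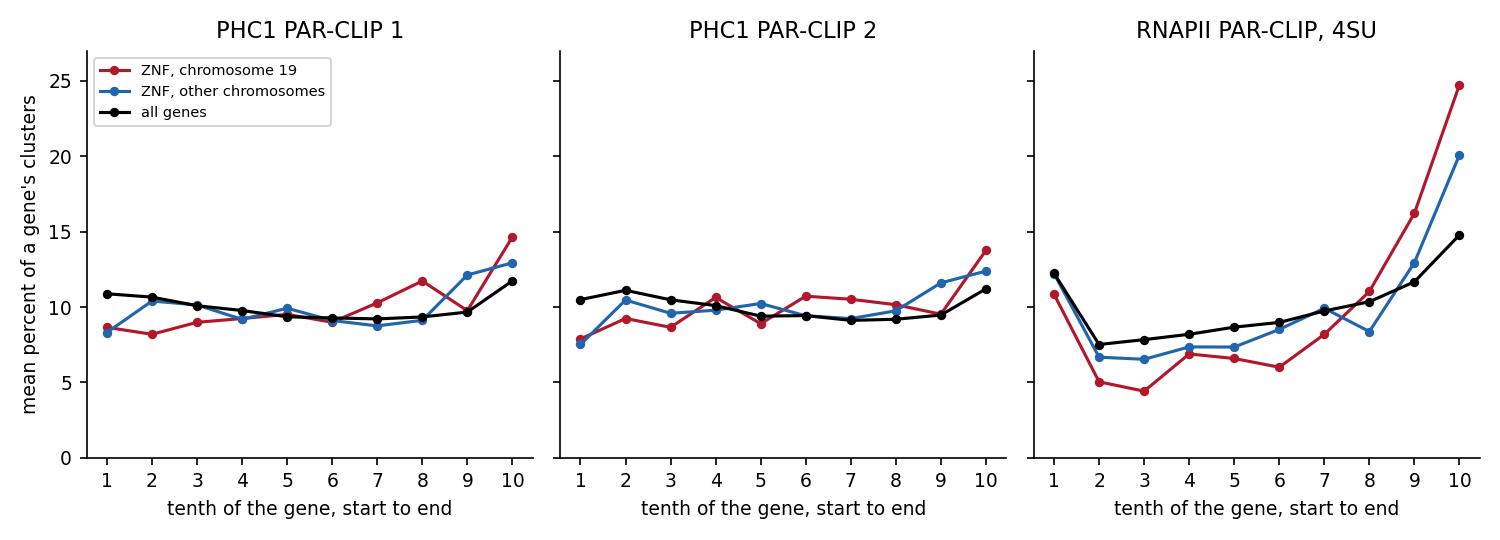
Mean percent of a gene's clusters in each 10% step of the gene region from start to end, for both PHC1 PAR-CLIP libraries and RNAPII 4SU, over genes with 10 or more clusters on their strand in chromosome 19 ZNF genes, ZNF genes on other chromosomes and all genes. In chromosome 19 ZNF genes the last 10% holds 14.6% of PHC1 replicate 1 clusters and 24.7% of RNAPII 4SU clusters.

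Genes of known partners of KRAB zinc finger proteins went both ways. Of a list of 29 corepressor and heterochromatin genes, 17 were in the table and all 17 were tested, with 8 higher and 9 lower in PHC1 PAR-CLIP than in nuclear RNA (median log2 fold -0.21), beside 35.5% higher and 47.1% lower and a median of -0.33 over all genes. TRIM28 was lower (log2 fold -2.34 ± 0.15) and SETDB1 higher (1.38 ± 0.09). ATRX and DNMT1, of heterochromatin and DNA methylation, were higher by 1.74 and 2.26. The H3K9 methyltransferase SUV39H1 was lower (-3.11 ± 0.67). H3K4me3 passed 2 times input at 16 of the 17 and H3K27me3 at 0.

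Markers of the HEK293 line (PAX2, LHX1, INA, NEFL, NEFM and VIM) were detected in 6 of 6 genes, of which VIM had 925 and 890 CPM and NEFM 0.381 and 0.121 CPM in the nuclear RNA libraries. Their sum was 1129 and 1094 CPM in these libraries, which held 47187882 and 49626658 reads in genes. Lists of 3 markers summed to 0.445 and 0.363 CPM for hepatocytes, 1.65 and 1.69 for fibroblasts and 0.275 and 0.423 for blood cells. For keratinocytes 1 of 3 markers was in the table, at 0.0212 and 0 CPM.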

How the data were processed

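The members and gene lists were chosen with earlier results of these data known. RNA reads were aligned with TopHat2 2.0.11, ChIP reads with Bowtie2 2.2.3 and PAR-CLIP reads with Bowtie 0.12.7 to hg19, per the submitters' processing notes; the cluster caller, read counter and TSS window are not given in the sources used here. Nuclear RNA values are the authors' raw read counts per gene. Values per kb divide them by the length of the whole gene region, and whether the counts cover introns was not checked. The deposited ChIP table holds an input-subtracted score per TSS, from which whole reads were recovered in the RNAPII, EZH2, H3K27me3 and H3K4me3 columns (tolerance 1e-08). Its PHC1 and PHC1-dFCS columns join 2 replicates, so the count test planned for them was not run. PAR-CLIP clusters carry a mean coverage signal as deposited by the authors. Mean times length gave whole numbers, summed over the region that holds the cluster's midpoint.

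Values per 1M scaled with TMM (edgeR 4.0.16) were tested with limma 3.58.1 on log2(value + 1) after a filter of 5 per 1M in at least 2 libraries. DESeq2 1.42.0 and edgeR on cluster numbers were alternatives. p-values were adjusted by Benjamini-Hochberg over all genes tested, called under 0.05. The test against nuclear RNA was tested on simulated data and recovered 43 of 100 genes changed 2-fold. Those data held far fewer changed genes than were called in the measured data, where recovery was not tested. A summed coverage is not a count of molecules, and fold changes on the log2(value + 1) scale understate changes of low genes. ChIP ratios are CPM over input, and log2 over input adds 1 CPM to each. Symbols were matched for 14378 of 14432 Entrez numbers; promoters and strands come from RefSeq (GRCh38.p14). The RNA table has 1 further value column that was not used.

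Named genes were the known-roles list, the 8 highest and 8 lowest folds of each PAR-CLIP comparison, the 6 with most RNA per kb, the 4 highest of each mark, the 4 lowest in H3K4me3, and 3 at each end of dFCS over PHC1 among genes of sufficient value. Replicate numbers did not pair PHC1 with RNA libraries.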

Additional observations from a re-analysis of the deposited data

How the results depend on the processing

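Against nuclear RNA, the counts of chromosome 19 ZNF genes higher in PHC1 PAR-CLIP kept within 1.5 times of 93 under the alternatives run. Those lower were 40 with totals alone and 15 with DESeq2 on cluster numbers, and 13 to 38 with 1 library left out. With 1 library left out, ZNF genes elsewhere had 32 to 66 lower and all genes 2779 to 5097 lower. ZNF350 was called lower (-0.68) without PHC1 replicate 1 and higher (0.27) without PHC1 replicate 2. A lone library was assumed to vary like the other group. Among 33 named genes under 15 settings, 449 of 458 values kept direction and call, 7 lost the call, 1 gained it and 1 turned. The setting of clusters in 1 region only is among the 15. It repeats the main fit, because no region of these genes overlaps another, so its values could not change.

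Against RNAPII, edgeR on cluster numbers called 31 chromosome 19 ZNF genes higher and 6 lower, 13 and 24 ZNF genes elsewhere, and 1211 and 1083 of all genes; DESeq2 called 3 and 3 of all genes. With 4SU as the only control the counts were 60 and 23, 34 and 47, and 2707 and 2248, and with clusters on the strand of the gene in addition 59 and 16, 33 and 33, and 2063 and 1690. With 1 PHC1 library left out, all genes higher numbered 0 to 4. ZNF350 and ZNF181 turned to -1.17 and -1.98 with 4SU alone and to -1.07 and -1.83 with the strand in addition, and the cause was not tested.

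RNAPII marked 53 chromosome 19 ZNF promoters at 3 times input and 165 by a score above 0. EZH2 marked 14 at 1.5 times, 0 at 3 times and 85 by score, and H3K27me3 5, 0 and 42. A score above 0 means any excess over input. Median RNAPII, EZH2 and H3K27me3 were 2.13, 0.977 and 0.758 times input in chromosome 19 ZNF genes, against 1.88, 0.997 and 0.756 over all genes. The median log2 of H3K4me3 over input was 2.28 with 0.5 CPM added. dFCS over PHC1 passed at 22 genes with 1.5-fold, 32 with input-subtracted values (3 lower, median log2 0.78) and 0 after the median of all genes was taken off. Nuclear RNA had a median of 1.21 per kb with totals alone. No share over all genes is given for these other limits, so the counts show only how they move with the limit. Depth limits EZH2 and H3K27me3 ratios of single promoters and genes with few clusters.

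Deviations of PHC1 and RNA libraries with the same number had a correlation of 0.036 over 9362 genes, so the numbers were not taken as pairs. With the replicate number as a block, 89 chromosome 19 ZNF genes were higher and 25 lower, 64 and 59 ZNF genes elsewhere, and 3255 and 4423 of all genes. No paired analysis was possible against RNAPII because its libraries share only number 1.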

Other observations

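The chromosome 19 ZNF runs also differed in nuclear RNA per length. From ZNF283 to ZNF296 the median level was 3.24 per 1M per kb over 12 genes, and 11 of the 12 promoters had H3K4me3. From ZNF175 to ZNF331 the median was 0.573 over 31 genes, with H3K4me3 at 26 promoters but RNAPII at 14. The 38 chromosome 19 ZNF genes with TCCAATCAGG in the promoter had medians of 0.792 per 1M per kb of nuclear RNA and 7.44 times input of H3K4me3, against 1.29 and 9.17 in the other 120 with a promoter sequence, and 32 of the 38 had H3K4me3. Of these 38, 16 also held the ETS core. The word ACTACAA, part of the element read by ZNF143 and searched on either strand, stood in 6.33% of chromosome 19 ZNF promoters, 6.38% of ZNF promoters elsewhere and 3.14% of all promoters. All of these are descriptions with no test.

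Among ZNF genes on other chromosomes with known roles, ZNF143, an activator of promoters, was higher in PHC1 PAR-CLIP than in nuclear RNA by a log2 fold of 1.95 (limma adjusted p 0.000500), and ZNF521 and ZNF217, both transcription cofactors, were lower at -2.47 and -1.54. ZNF445, which acts at imprinted regions, was higher at 0.83 although its listed start had 0.677 times input of H3K4me3.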
